A study of Mus musculus with 9 samples.

Results

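Small heat shock proteins and the chaperones that work with them in the sarcomere were examined in adult mouse heart. The set holds 10 genes, chosen by symbol: 7 small heat shock proteins (Hspb1, Hspb2, Hspb3, Hspb6, Hspb7, Hspb8 and Cryab), the co-chaperone Bag3, the myosin chaperone Unc45b and the constitutive Hsp70 Hspa8. They are 10 of the 15779 genes with values. The set and the gene lists used below were chosen with earlier results of these data known. The study used C57BL/6J mice with a homozygous premature stop codon in Mybpc3, the gene of cardiac myosin-binding protein C, and asked what an adenine base editor aimed at that codon does in the heart. There were 3 groups of 3 libraries of polyA RNA: wild-type mice given saline, Mybpc3R946X/R946X mice given saline, and Mybpc3R946X/R946X mice given high-dose-exABE8e. Per the series' design text, the editors built for the study were SpRY-ABEmax and SpRY-ABE8e, and AAV9 carried them for expression in cardiomyocytes. No group with an empty vector was analysed here, so effects of the virus, of the editor protein and of the corrected codon cannot be told apart. The labels give no dose, no sex and no age beyond adult. They also do not say that the replicates were separate animals, so p-values measure only the spread between these samples.

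Small heat shock proteins share an alpha-crystallin domain, form oligomers and bind unfolding proteins without using ATP. In heart and skeletal muscle they associate with the Z-disc, desmin, titin and filamin, and mutations in CRYAB cause desmin-related myopathy and cardiomyopathy. Bag3 joins Hspb8 to Hsp70 proteins such as Hspa8, and this complex passes damaged filamin to autophagy, a route known as chaperone-assisted selective autophagy. Unc45b folds the myosin motor domain together with Hsp90. Several of these genes, with Hsp70 and Hsp90 genes, are known targets of heat shock factor 1 (HSF1), the transcription factor that answers protein unfolding.

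The stretch before the start of transcription is shown for 4 members: Hspb1 and Hspb7, which differed between mutant and wild type, and Hspb8 and Bag3, which belong to 1 complex. Each is the 250 bases upstream in RefSeq on GRCm38.p6, 5′ to 3′ on the gene's strand: chr5:135887669-135887918 (plus strand) for Hspb1, chr4:141420529-141420778 (plus) for Hspb7, chr5:116422865-116423114 (minus) for Hspb8 and chr7:128523333-128523582 (plus) for Bag3. Capitals mark GAANNTTC or TTCNNGAA, the inverted pairs of the GAA unit that HSF1 is known to bind; each reads the same on both strands.
Hspb1: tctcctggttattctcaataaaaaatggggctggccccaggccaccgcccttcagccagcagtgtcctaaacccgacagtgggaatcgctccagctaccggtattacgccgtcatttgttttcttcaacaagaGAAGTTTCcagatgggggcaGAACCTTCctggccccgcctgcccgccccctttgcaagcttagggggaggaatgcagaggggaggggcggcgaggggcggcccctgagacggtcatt
Hspb7: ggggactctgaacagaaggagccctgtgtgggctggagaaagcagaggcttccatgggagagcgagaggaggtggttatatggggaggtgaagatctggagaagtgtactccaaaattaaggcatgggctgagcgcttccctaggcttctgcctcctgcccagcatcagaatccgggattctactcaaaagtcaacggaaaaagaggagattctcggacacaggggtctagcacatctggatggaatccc
Hspb8: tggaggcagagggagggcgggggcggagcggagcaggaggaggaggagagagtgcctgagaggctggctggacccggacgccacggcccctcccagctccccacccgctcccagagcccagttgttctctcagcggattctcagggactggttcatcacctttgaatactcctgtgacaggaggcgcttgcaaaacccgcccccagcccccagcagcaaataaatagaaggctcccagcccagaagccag
Bag3: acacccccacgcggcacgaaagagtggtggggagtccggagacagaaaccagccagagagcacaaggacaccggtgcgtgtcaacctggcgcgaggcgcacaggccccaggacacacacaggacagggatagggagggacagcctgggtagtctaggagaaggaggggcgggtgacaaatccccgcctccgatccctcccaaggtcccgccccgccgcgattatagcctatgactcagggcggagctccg
The Hspb1 stretch holds the pair 2 times, at -117 to -110 and at -97 to -90 from the start. RefSeq entries were matched for 7 of the 10 members, with 8 stretches in all. The pair also occurs at -224 to -217 in Hspb3 and at -120 to -113 in 1 of 2 starts of Hspb6. It does not occur in the stretches of Hspb7, Hspb8, Bag3 and Unc45b. Of 32851 stretches of the same length, 12.8% hold at least 1 such pair, so a match is frequent. A longer run, with a further unit 2 free bases after the pair, is in 0.466% of them and in none of the members' stretches. That run is also absent from the stretches of Hspa1a, Hspa1b, Hsph1 and Dnajb1, heat-inducible genes known as HSF1 targets. The pair is present in Hspa1a, Hspa1b and Hsph1 but in neither stretch of Dnajb1. An absent exact match therefore does not show that a gene lacks HSF1 binding. Hspb2, Cryab and Hspa8 had no entry.

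The deposited values are whole numbers with library totals of 999152 to 999382, on a scale that the sources used here do not name, so sequencing depth is unknown. Between 14151 and 14934 genes were above 0, and mitochondrial genes took 17.0% to 24.1% of the total. Mybpc3, the mutated gene, checked the labels: its mean value was 1781 ± 265 (SD, n = 3) in wild type, 154 ± 28.4 with saline alone and 1243 ± 191 with the editor in the mutants. The labelled tissue was heart, and all 8 cardiomyocyte markers were measured, with summed values of 37811 to 47506 over the 9 libraries. Xist, transcribed in female cells, was 119 in wild type replicate 1, 351 in saline mutant replicate 3 and 39 in treated replicate 1, and 0 in the other 6 libraries. The Y-linked gene Ddx3y was 70 to 97 in those 6 libraries. Treated replicate 1 held both, with Ddx3y at 38, and values without it are also given for many of the results that rest on it.

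All 10 genes were detected in every library. By deposited value averaged over the 9 libraries the order was Hspb7, Hspa8, Cryab, Hspb6, Hspb8, Bag3, Hspb1, Unc45b, Hspb2 and Hspb3. The tables do not say whether values were already divided by transcript length. Divided by the median transcript length in kilobases, the order became Cryab, Hspa8, Hspb7, Hspb6, Hspb8, Hspb1, Bag3, Unc45b, Hspb2 and Hspb3. Cryab, Hspa8 and Hspb7 therefore filled the first 3 places on either reading, with Hspb2 and Hspb3 last. In wild type hearts the deposited values of Hspb7 (1185 to 1427) and Hspa8 (1202 to 1329) overlapped. Together the 10 genes took 0.552%, 0.503% and 0.527% of the library total in wild type, 0.847%, 0.783% and 0.724% in the saline mutants, and 0.973%, 0.757% and 0.629% in treated mutants. Every mutant library, treated or not, stood above every wild-type library in this share.

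Saline mutants were compared with saline wild type to ask how the stop codon altered the chaperones. Of the 10 members 3 rose, the small heat shock proteins Hspb1 and Hspb7 and the Hsp70 Hspa8, and none fell. Hspb1 and Hspb7 were close to 2-fold higher and Hspa8 1.5-fold higher, while Hspb8 and Bag3 lay within 1.07-fold and 1.14-fold of wild type. A gene was called at an adjusted p under 0.05 in limma, fitted over all genes on log2(value + 1). By that rule 3 of 10 members were called, against 7.71% of the 13632 genes tested (4.56% higher and 3.15% lower). Because the members were picked with earlier results of these data known, the 2 shares are a description and not a test. The median log2 fold change was 0.32 over the members and 0.07 over all genes tested. These are bulk samples, so a change in the share of a cell type and a change in RNA per cell cannot be told apart.

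Hspb1, a stress-inducible small heat shock protein that binds actin filaments and other unfolding clients, lies at chr5:135887919-135889563 on the plus strand (GRCm38, GENCODE M21). Its values were 141, 131 and 121 in wild type and 317, 254 and 264 in saline mutants. The groups did not overlap, and the lowest mutant value was 194% of the wild-type mean. On the log2 scale the difference was 1.08 (limma, SE 0.116, adjusted p = 0.00104). Hspb1 was called under all 15 alternatives, with limma adjusted p between 0.000628 and 0.0178.

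Hspb7, a muscle-restricted small heat shock protein that binds filamin C, lies at chr4:141420779-141425311 on the plus strand. It had values of 1427, 1185 and 1351 in wild type and 2952, 2609 and 2379 in the saline mutants. The lowest mutant value lay well above the highest wild-type value. On the log2 scale it differed by 1.0 (limma, SE 0.127, adjusted p = 0.00201), and all 15 alternatives called it.

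Hspa8, the constitutive Hsp70 that takes clients from small heat shock proteins and is the Hsp70 partner in Bag3 complexes, lies at chr9:40800984-40810087 on the plus strand. Its values were 1202, 1261 and 1329 in wild type and 2003, 1808 and 1881 in saline mutants. The groups were separate, and the spread within each was narrow. The log2 difference was 0.59 (limma, SE 0.103, adjusted p = 0.0100). This call was held by 11 of 15 alternatives and ended, among others, under median-of-ratios scaling (limma adjusted p = 0.0928), in 1 fit of all 9 libraries (0.0586) and without saline mutant replicate 2 (0.0506). Hspa8 has close relatives and processed copies in the genome, and how the counting treated reads shared with them is not given in the sources used here.

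**Figure D1:**
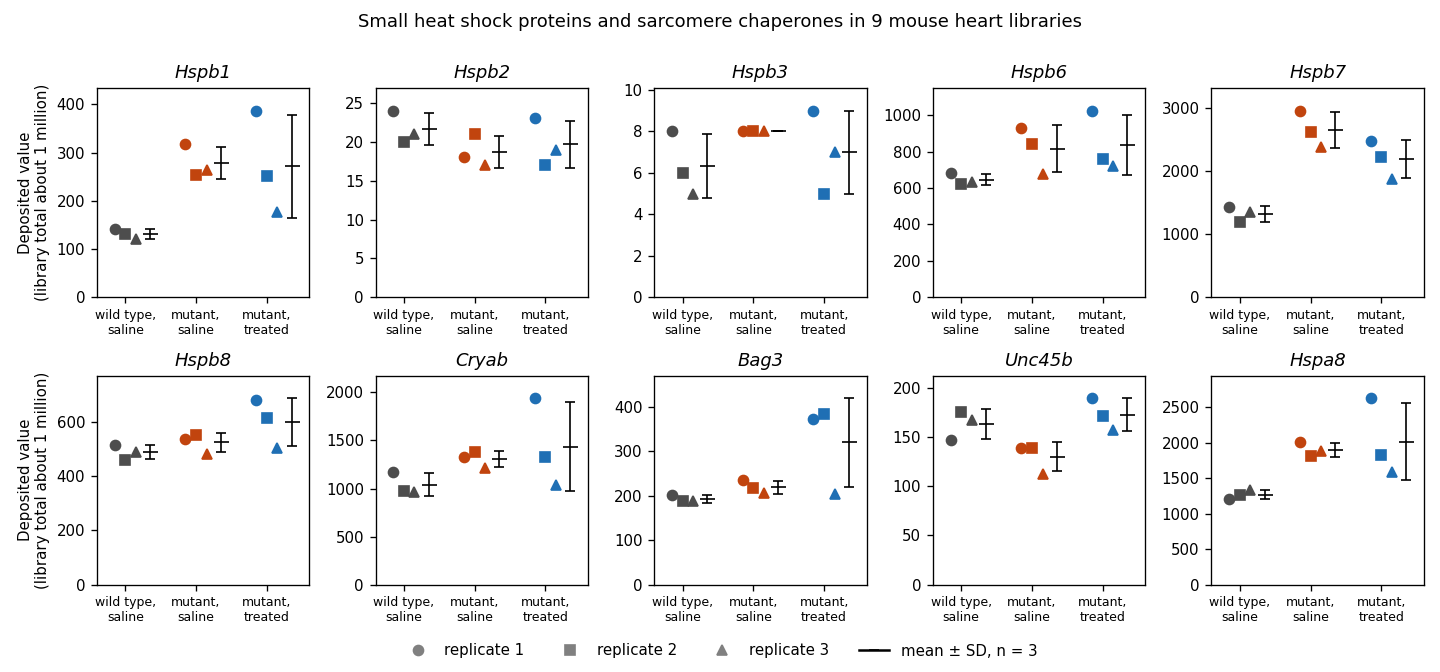
Deposited value (y axis, on the deposited scale) of each of the 10 chaperone genes in the 9 libraries, by group on the x axis; points are libraries, marker shape gives the replicate number, and bars are mean ± SD of n = 3. Hspb1, Hspb7 and Hspa8 have no overlap between wild type and saline mutants, and treated replicate 1 is the highest treated library for 9 of 10 genes.

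The other small heat shock proteins differed less. Cryab (alpha B-crystallin, the chaperone of desmin) had values of 1175, 979 and 966 in wild type and 1324, 1378 and 1212 in saline mutants. The groups did not overlap, but the log2 fold change of 0.33 (95% interval 0.06 to 0.60) was not called (limma adjusted p = 0.149). Hspb6, a small heat shock protein of striated and smooth muscle, had values of 681, 622 and 634 in wild type and 929, 843 and 677 in saline mutants. Mutant replicate 3 lay within the wild-type range, and the log2 fold change of 0.33 (0.03 to 0.62) was not called either (limma adjusted p = 0.203). Both genes were called when the 3 libraries with Xist were left out, Cryab at 0.47 (limma adjusted p = 0.0358) and Hspb6 at 0.49 (limma adjusted p = 0.0385).

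Hspb8, the small heat shock protein of the Bag3 complex, had values of 512, 460 and 488 in wild type and 537, 550 and 482 in saline mutants. These ranges overlapped, and the log2 fold change was 0.10 (95% interval -0.12 to 0.33, limma adjusted p = 0.646). Hspb2, which binds the kinase of myotonic dystrophy, was low at 24, 20 and 21 in wild type and 18, 21 and 17 in saline mutants. Hspb3, whose partner is Hspb2, was the lowest member at 8, 6 and 5 against 8 in each saline mutant. Neither was called (log2 fold changes -0.21 and 0.32, limma adjusted p = 0.450 and 0.390), and at values this small rounding to whole numbers limits what can be seen. Hspb2 (chr9:50751078-50752354, minus strand) and Cryab (chr9:50751325-50756636, plus strand) overlap over 1030 bases in the annotation. Whether the counting used strand is not stated, so reads from the shared stretch cannot be told apart.

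Bag3, the scaffold between Hsp70 and Hspb8, had values of 202, 187 and 188 in wild type and 234, 217 and 205 in saline mutants. All 3 mutant values were above all 3 wild-type values by a small margin, with a log2 fold change of 0.18 (95% interval -0.03 to 0.40, limma adjusted p = 0.339). Unc45b, the myosin chaperone, was the only member with every saline mutant value below every wild-type value. It had 147, 176 and 168 in wild type and 139, 139 and 113 in saline mutants, a log2 fold change of -0.33 (95% interval -0.60 to -0.05) that was not called (limma adjusted p = 0.163). Groups without overlap were thus seen for 5 members in the higher direction and 1 in the lower, against 12.8% and 8.78% of all genes tested.

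Treated mutants were compared with saline mutants to ask what the editor changed. No member was called, against 0.0293% of the 13636 genes tested (4 genes), so this comparison had few calls of any kind. At an unadjusted p under 0.05, limma passed 1 member, Unc45b, and 1130 genes in all (8.29%). The median log2 fold change was 0.06 over the members (-0.14 without treated replicate 1) and -0.02 over all genes. Unc45b had 139, 139 and 113 with saline and 190, 172 and 157 with treatment. It was the only member without overlap between these groups (5.48% of all genes were higher without overlap), with a log2 fold change of 0.41 (95% interval 0.12 to 0.69, limma adjusted p = 0.439). The treated values of Unc45b overlapped the wild-type values of 147 to 176.

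Bag3 had 371, 383 and 204 in treated mutants, so that replicates 1 and 2 were far above the saline mutants and replicate 3 lay just below them. Its log2 fold change against saline mutants was 0.49 (95% interval -0.02 to 1.0, limma adjusted p = 0.609), and 0.78 without treated replicate 3 (limma adjusted p = 0.0852) or 0.36 without treated replicate 1 (0.792). Hspb8, its partner, also had its lowest treated value in replicate 3, which was the lowest treated library for 8 of the 10 members. The Hspb8 values were 678, 614 and 503, with a log2 fold change of 0.19 (limma adjusted p = 0.745). Over the 15 alternatives it lay between 0.03 and 0.30. Hspb7 had 2473, 2213 and 1868 in treated mutants, 0.825 of the saline mutant mean. Its ranges overlapped in these groups and the log2 fold change of -0.28 (95% interval -0.61 to 0.05) was not called (limma adjusted p = 0.658).

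For Hspb1, Hspa8, Cryab and Hspb6 the sign of the difference turned when a single treated library was left out. For Hspb6 it also turned without saline mutant replicate 3. Hspb1 was 387, 252 and 176 in treated mutants, a range that enclosed all 3 saline mutant values. Its log2 fold change was -0.10 (95% interval -0.67 to 0.47), which became -0.39 without treated replicate 1 and 0.17 without treated replicate 3. Hspa8 had 2628, 1821 and 1587, with a log2 fold change of 0.05 (-0.36 to 0.47) that became -0.16 without treated replicate 1. Cryab had 1943, 1328 and 1041 (0.09, and -0.15 without treated replicate 1). Hspb6 had 1025, 757 and 723 (0.03, and -0.13 without treated replicate 1). None of the 4 was called. Hspb2 (23, 17 and 19) and Hspb3 (9, 5 and 7) had low values and were not called. The small difference of Hspb2 (log2 fold change 0.07) also turned sign without treated replicate 1.

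**Figure D2:**
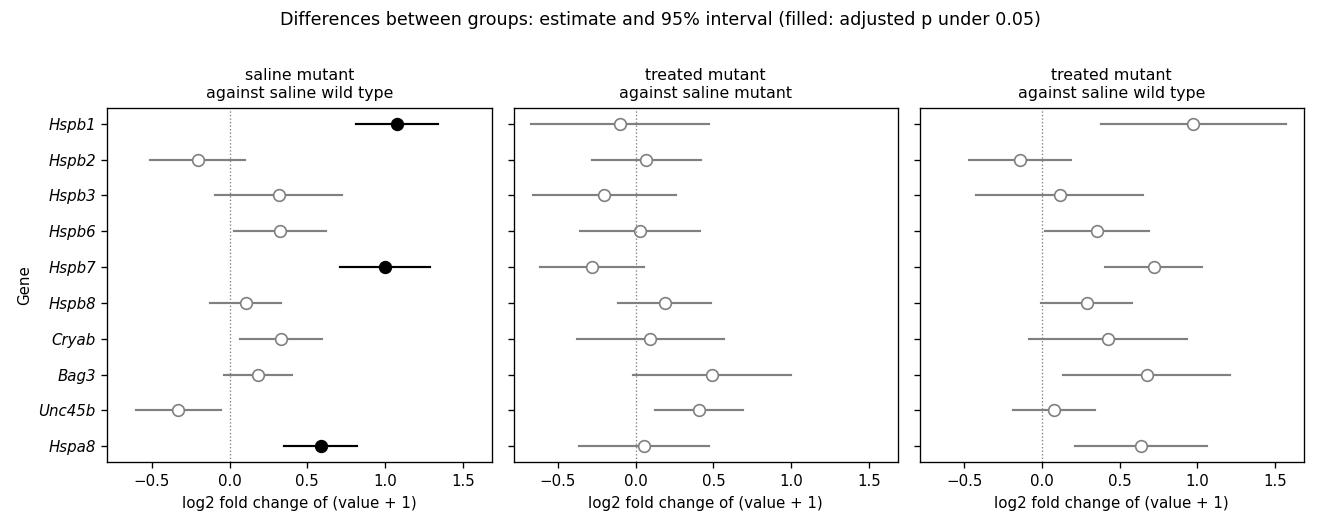
Log2 fold change of (value + 1) on the x axis for each of the 10 genes (y axis) in the 3 comparisons, with 95% intervals from limma; filled points have an adjusted p under 0.05. Filled points are Hspb1 at 1.08, Hspb7 at 1.0 and Hspa8 at 0.59 between saline mutant and wild type, and there are none in the other two panels.

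Treated mutants were also compared with saline wild type, to ask how far the treated hearts stood from wild type; this comparison shares the wild-type libraries with the first and the treated libraries with the second. No member was called, against 0.989% of the 13554 genes tested. At an unadjusted p under 0.05, limma passed 5 members, Hspb1, Hspb6, Hspb7, Bag3 and Hspa8, all higher, against 7.74% of all genes. The same 5 were higher without overlap, against 9.13% of all genes. The median log2 fold change was 0.39 over the members and 0.01 over all genes. Without treated replicate 1 the median was 0.19 and 3 members passed the unadjusted threshold. None of the 10 lay lower without overlap.

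Hspb7 was 1.65-fold above wild type on average, with a log2 fold change of 0.72 (95% interval 0.41 to 1.03, limma adjusted p = 0.0654), and it was called when all 9 libraries were fitted together (limma adjusted p = 0.0260). Hspb1 was 2.07-fold above wild type, with a log2 fold change of 0.98 (0.38 to 1.57, limma adjusted p = 0.167). Without treated replicate 3 it was called at 1.25 (limma adjusted p = 0.0493), and without treated replicate 1 it was 0.68 (limma adjusted p = 0.246). The wide interval of Hspb1 comes with treated values from 176 to 387. Bag3 was 1.66-fold above wild type, with a log2 fold change of 0.67 (0.14 to 1.21, limma adjusted p = 0.284). Without treated replicate 3 it was called at 0.97 (limma adjusted p = 0.0215), and without treated replicate 1 it was 0.54. Treated replicate 3 had a Bag3 value of 204, beside a wild-type range of 187 to 202.

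Hspa8 was 1.59-fold above wild type, with a log2 fold change of 0.64 (0.21 to 1.06, limma adjusted p = 0.207), and 0.43 without treated replicate 1. For Cryab the corresponding values were 1.38-fold and 0.42 (-0.09 to 0.93, limma adjusted p = 0.488), and 0.18 without treated replicate 1. Cryab in treated replicate 3 (1041) was inside the wild-type range. Hspb6 had a log2 fold change of 0.35 (0.02 to 0.69) and Hspb8 of 0.29, with limma adjusted p of 0.368 and 0.409. Without treated replicate 1 the log2 fold changes were 0.20 for Hspb6 and 0.19 for Hspb8. Unc45b (0.08), Hspb2 (-0.14) and Hspb3 (0.11) were nearest to wild type, and none was called.

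The spread among treated hearts followed the libraries. Treated replicate 1 was the highest treated library for 9 of 10 members, and it was the highest for 21.7% of 13530 genes. Replicate 3 was the lowest for 8 of 10 members and for 17.7% of all genes. Bag3 was the exception at the top, with replicate 2 highest (383), and Hspb2 and Hspb3 were the exceptions at the bottom. In the other groups the members also leaned toward a library: wild type replicate 1 was highest for 8 of 10 (21.4% of all genes) and saline mutant replicate 3 lowest for 7 of 10 (12.9%). Wild type replicate 1 and treated replicate 1 had the highest mitochondrial share of their groups (24.1% and 20.7%), and saline mutant replicate 3 had the lowest (17.0%), while treated replicate 3 (19.7%) lay above treated replicate 2 (17.6%). These 3 libraries were also the ones with Xist. The part of the mitochondrial share and of Xist status in the chaperone values was not tested.

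Heat-inducible chaperones known as HSF1 targets showed the same order of treated libraries. Of 12 listed, all 12 were measured. Treated replicate 1 was the highest treated library for 11 of them and replicate 3 the lowest for 11. Hspa1a, the inducible Hsp70, had values of 1, 1 and 1 in wild type, 2, 1 and 1 in the saline mutants, and 29, 19 and 2 in treated mutants. Its neighbour Hspa1b, nearly identical in sequence, had 2, 2 and 1, then 3, 2 and 4, then 42, 22 and 2. Reads may be split between the pair, so each value is uncertain, but replicates 1 and 2 were high and replicate 3 was at the level of the saline hearts for both. Hspa1a was not called against wild type (log2 fold change 2.6, limma adjusted p = 0.213) or against saline mutants (2.41, limma adjusted p = 0.439). Without treated replicate 3 it was called in both, at 3.61 (limma adjusted p = 0.00526) and 3.42 (limma adjusted p = 0.0102). No other alternative called it; without treated replicate 1 the values were 1.95 (limma adjusted p = 0.427) and 1.76 (0.685), and without replicate 2 they were 2.25 (0.489) and 2.05 (0.992).

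**Figure D3:**
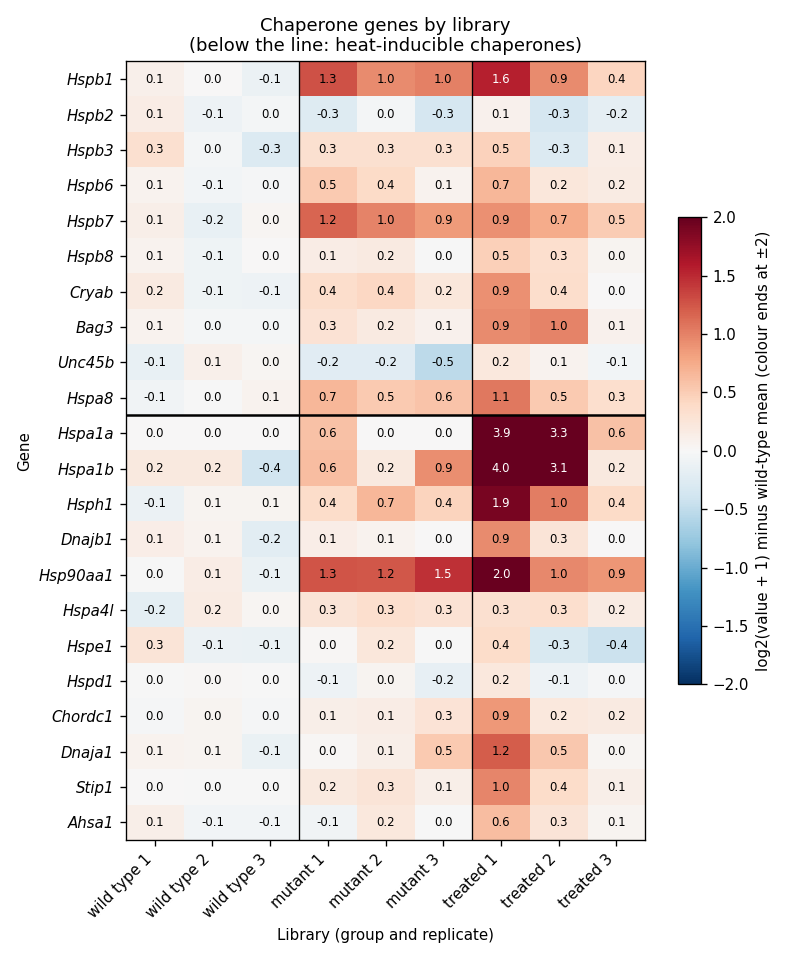
Log2(value + 1) minus the wild-type mean for the 10 chaperone genes (above the line) and 12 heat-inducible chaperones (below it), rows being genes and columns the 9 libraries; the colour scale ends at 2 in each direction and printed figures are the values. Hspa1a and Hspa1b stand out in treated replicates 1 and 2, and treated replicate 3 has the lowest treated value in 8 of the 10 upper rows.

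Among the 12, Hsp90aa1 and Hsph1 rose in saline mutants against wild type. Hsp90aa1, the inducible cytosolic Hsp90, had 98, 109 and 90 in wild type, 237, 234 and 272 in the saline mutants and 390, 193 and 183 in the treated mutants. It was higher in each mutant library than in any wild-type library, by 1.32 on the log2 scale in saline mutants (limma adjusted p = 0.000325) and by 1.27 in treated mutants (limma adjusted p = 0.103, not called). Against wild type the treated value was 0.92 without treated replicate 1 (limma adjusted p = 0.0545), and it was called when all 9 libraries were fitted together (0.0280). Hsph1, an Hsp110 that recycles Hsp70, had 48, 54 and 54, then 67, 83 and 71, then 196, 107 and 68. Its rise of 0.49 in saline mutants (limma adjusted p = 0.0370) was held by 5 of 15 alternatives only, and each left-out library other than saline mutant replicate 1 ended it (limma adjusted p between 0.0727 and 0.170). Over the list, 2 of 12 rose and 0 fell in saline mutants, against 4.56% and 3.15% of all genes, and 0 of 12 were called in either comparison with treated mutants (2 of 12 in each without treated replicate 3). At an unadjusted p under 0.05, limma passed 2 of 12 against saline mutants and 5 of 12 against wild type, all higher, beside 3.53% and 7.74% of all genes. Without treated replicate 1 the counts were 1 higher and 2 lower, and 3 higher and 1 lower. The list's median log2 fold changes were 0.19, 0.28 and 0.45 in the 3 comparisons, in the order used above, beside 0.07, -0.02 and 0.01 over all genes. The last pair became 0.05 and 0.24 without treated replicate 1.

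The remaining heat-inducible genes were not called, and most had their highest value in treated replicate 1. Dnaja1, a J-domain co-chaperone of Hsp70, had 79, 78 and 68 in wild type, 76, 81 and 108 in the saline mutants and 174, 109 and 77 in the treated ones. Stip1, which bridges Hsp70 and Hsp90, had 106, 105 and 105, then 121, 126 and 114, then 208, 136 and 114. For Dnajb1, the heat-inducible J-domain protein, the values were 22, 21 and 17, then 22, 21 and 20, then 39, 24 and 20. In these 3 genes replicate 3 was again within or near the saline range. Chordc1 (73, 46 and 45 in treated mutants against 39 to 48 in the saline groups) and Ahsa1 (132, 102 and 89 against 81 to 99) are Hsp90 co-chaperones with the same order. Hspa4l (79, 80 and 71 against 55 to 80) had treated values within the saline range. Hspe1 and Hspd1 form the mitochondrial chaperonin. Hspd1 (556, 450 and 476 against 430 to 498) left the saline range in replicate 1 only. Hspe1 (123, 77 and 71 against 87 to 114) was above it in replicate 1 and below it in the other treated replicates.

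Wider chaperone lists, also chosen with earlier results known, were counted beside the members as a description. Of 95 other genes listed, 92 were measured and tested. In saline mutants against wild type 10 of 92 rose (10.9%) and 0 fell, beside 4.56% and 3.15% of all genes, with a median log2 fold change of 0.14 (0.07 over all genes). At an unadjusted p under 0.05, limma passed 25 higher and 3 lower, beside 12.1% and 7.76% of all genes. The 10 were Hsp90aa1, Hsph1, Hspa1l, Dnajb4, Dnaja4, Bag2, Flnc, Synpo, Des and Cct8. Against saline mutants none of the 92 was called in treated mutants (3 at an unadjusted p under 0.05 in limma, all higher, beside 3.53% of all genes). Against wild type 1 was, Flnc, beside 0.989% of all genes. Unadjusted, 22 were higher and 2 lower there, beside 7.74% and 4.78% of all genes. Leaving out saline mutant replicate 2 lowered the first count to 5, and leaving out treated replicate 3 raised the others to 2 and 5. With all 9 libraries in 1 fit 3 of the 92 were called lower in saline mutants, and the count against wild type became 6. That last count became 0 with limma's trend and no rounding floor, and without any 1 of wild type replicates 1 and 2 or treated replicates 1 and 2.

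By list, the counts of genes that rose in saline mutants were 2 of 11 for chaperone-assisted selective autophagy, 2 of 9 for muscle clients of small heat shock proteins, 2 of 13 for J-domain proteins, 1 of 10 for other Hsp70 and Hsp110 genes, 1 of 8 for the BAG family and Hsp70 cofactors, and 1 of 14 for the TRiC chaperonin and prefoldin. None fell in these lists. The share of all genes called higher was 4.56%, so 1 call in a list of 8 to 14 is not set apart from the background. The Hsp90 and myosin folding list had 0 of 11 called, the heat shock factors 0 of 4, and the other small heat shock proteins 0 of 1 measured. Hsp90aa1, which was called higher, and Stip1, Ahsa1 and Chordc1 were counted with the heat-inducible genes and not in the Hsp90 list. Flnc counts in 2 of the lists. The medians of these 9 lists ran from -0.08 (other Hsp70 and Hsp110 genes) to 0.31 (muscle clients), beside 0.07 for all genes. In treated against saline mutants the medians ran from -0.11 to 0.09 with no gene called in any list, and in treated mutants against wild type from 0.0 to 0.30 with Flnc alone called.

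Filamin C (Flnc), the actin crosslinker that Hspb7 binds and Bag3 complexes remove, differed in both mutant groups. Its values were 194, 274 and 267 in wild type, 931, 596 and 471 in the saline mutants and 617, 684 and 505 in the treated ones. No mutant library overlapped wild type. The log2 fold change was 1.40 in saline mutants (limma adjusted p = 0.00878) and 1.3 in treated mutants (limma adjusted p = 0.0260). The first call ended without wild type replicate 1 (limma adjusted p = 0.0524) and with limma's trend and no rounding floor (0.0631). The second was held by 7 of 15 alternatives only. Among others, it ended without any 1 of the wild-type libraries or of treated replicates 1 and 2 (limma adjusted p between 0.0684 and 0.0814). Without the libraries with Xist it ended as well (limma adjusted p = 0.114).

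Desmin (Des), the intermediate filament that Cryab chaperones, had 1772, 1720 and 1941 in wild type, 2605, 2728 and 2682 in the saline mutants and 2811, 3044 and 2236 in the treated ones. It rose by 0.56 on the log2 scale in saline mutants (limma adjusted p = 0.0137). Bag2, a co-chaperone of the Bag3 family, had 45, 46 and 40, then 88, 89 and 82, then 93, 60 and 68. The rise of 0.97 in saline mutants (limma adjusted p = 0.000963) was held by all 15 alternatives. Treated replicates 2 and 3 were between the saline groups for Bag2, while treated replicate 1 was above both. Dnajb4, a J-domain protein, had 105, 103 and 110, then 167, 161 and 174, then 264, 197 and 148. Its rise in saline mutants was 0.65 (limma adjusted p = 0.00305), also held by all 15.

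Synpo, an actin-binding protein gene on the selective autophagy list, rose from 119, 128 and 137 to 196, 189 and 190 (0.58, limma adjusted p = 0.00711). Treated hearts had 173, 200 and 177, which overlapped the saline mutants. Dnaja4, another J-domain protein, rose by 0.70 (limma adjusted p = 0.00965), and Cct8, a subunit of the cytosolic chaperonin, by 0.51 (limma adjusted p = 0.0229). Hspa1l had 1 in each wild-type library and 3, 4 and 3 in saline mutants, a rise of 1.11 on log2(value + 1) (limma adjusted p = 0.00885) between values near the rounding step. Without saline mutant replicate 2 the calls of Des (limma adjusted p = 0.0912), Dnaja4 (0.0568), Cct8 (0.114) and Hspa1l (0.0784) ended. Des was also lost without wild type replicate 2 (0.0666) and under median-of-ratios scaling (0.137), and Cct8 without any wild-type library or saline mutant replicate 3 (0.0514 to 0.0956).

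Likeness across the 9 libraries was described with Pearson's r of log2(value + 1) over 4980 or 4981 genes whose mean was 30 or more; the libraries share their groups, so r reflects group differences and single libraries alike. Hspb1 and Hspa8 resembled each other (r = 0.965, each at rank 2 for the other), behind Gorasp2 for Hspb1 (r = 0.978) and Dnajb4 for Hspa8 (r = 0.970). Hsp90aa1 was next for Hspa8 (r = 0.962). Hspb8 and Bag3 also ranked each other highly (r = 0.934, rank 4 for Hspb8 and rank 7 for Bag3), behind Ctsd for Hspb8 (r = 0.967) and Yap1 for Bag3 (r = 0.958). Cryab and Hspb6 had the same closest gene, Tmem259 (r = 0.957 and 0.932). Hspb7 was closest to Adprhl1 (r = 0.986), Unc45b to Pdhb (r = 0.968), Hspb2 to Cox4i1 (r = 0.958) and Hspb3 to Tubb4b (r = 0.928). Unc45b had no other member nearer than r = 0.44.

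Markers of other cell types also moved between the groups. The 6 fibroblast markers summed to 1425 to 2047 in wild type, 2247 to 3600 in saline mutants and 1636 to 2251 in treated mutants, and 1 of 6 was called higher in saline mutants. Of 6 atrial markers, 3 were measured (Myl7, Sln and Bmp10 were not analysed here), and they summed to 91 to 116, 369 to 1503 and 186 to 281. That sum was mostly Nppa, at 42 to 61, 356 to 1489 and 155 to 256, while Kcnj3 went the other way at 48 to 54, 9 to 11 and 23 to 30. In saline mutants against wild type limma called Nppa and Myl4 higher and Kcnj3 lower. Of the 3, limma called 1 higher in treated against saline mutants, and 1 higher and 1 lower in treated mutants against wild type. The 5 blood genes summed to 104 to 313, 69 to 85 and 140 to 158. Of these 5, limma called 2 lower in saline mutants against wild type, beside 3.15% of all genes. The 6 smooth muscle markers summed to 328 to 484, 227 to 242 and 297 to 310, and the defining genes Tagln, Cnn1 and Actg2 were at 3 or less in every library. Of the 5 tested in saline mutants against wild type, limma called 1 lower. Endothelial markers (913 to 1257, 836 to 959 and 870 to 992) and macrophage markers (221 to 281, 225 to 422 and 177 to 288), 6 of 6 measured in each, overlapped between groups. Of 8 skeletal muscle markers 4 were measured, with sums of 1 to 5. Fabp4, the 1 adipocyte marker of 6 that was measured, was 734 to 921, 592 to 921 and 487 to 709. The summed cardiomyocyte markers overlapped between all groups and 0 of 8 were called by limma in any comparison. Singly, Tnnt2, Tnni3 and Pln were lower and Actn2 was higher without overlap in saline mutants against wild type (Tnni3 2026 to 2436 against 2836 to 3469), and limma passed the same counts, 3 lower and 1 higher, at an unadjusted p under 0.05. The part of these shifts in the chaperone differences was not tested.

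The authors' deposited table for saline mutants against wild type gave log2 fold changes of 1.02 for Hspb1, 0.94 for Hspb7 and 0.52 for Hspa8. Of the members, the authors' deposited table of 689 selected genes for this comparison, beside 15589 in the full one, held Hspb1 and Hspb7. Their deposited table of 137 selected genes for treated against saline mutants, beside 15580, held none. For treated mutants against wild type, the authors' deposited table of 317 selected genes, beside 15418, held Hspb1, Hspb7, Bag3 and Hspa8. The authors' log2 fold changes for these genes were 1.04, 0.71, 0.72 and 0.66. In the limma fit here none of them was called against wild type (limma adjusted p between 0.0654 and 0.284). In the authors' deposited tables the column named as adjusted p equals the unadjusted normal p of the test statistic for each gene with a value.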

How the data were processed

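RNA with polyA tails from adult heart was sequenced in 9 libraries. The submitters' processing notes name HISAT2, HTSeq, DESeq2 and mm10, with no roles given. Values per gene and library were deposited by the authors in 1 table per pair of groups and are treated as a score, which the authors made as a normalized quantity rounded to whole numbers, judging by library totals of 999152 to 999382; no label or header names the unit. Depth is therefore unknown, and precision rests on 3 libraries per group. The deposited mean signal over libraries was not used. The deposited log2 fold changes and p-values are quoted only as the authors' own. No value differed between the 3 tables.

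Each pair of groups had a separate limma fit (version 3.58.1, R 4.3.3) of log2(value + 1), restricted to genes averaging 1 or more over its 6 libraries; all 10 members passed. Fold changes on this scale understate changes of low genes. Residual variances were held at no less than the rounding variance (1/12), with a trend over the mean and a prior estimated from genes averaging 30 or more. Benjamini-Hochberg adjustment ran over all genes tested. Settings varied were pseudocount, filter, scaling, variance step, joint fit, replicate block and libraries left out, 15 per comparison. Coordinates are from GENCODE M21 (GRCm38) and promoters from RefSeq.

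The members and gene lists were chosen with earlier results of these data known. Named were all members, Mybpc3, every heat-inducible chaperone, each other listed chaperone called in any comparison, and for each member the gene with the highest r over the 9 libraries. Further genes beside a member in that ranking, marker genes at 0 or near it, and Xist and Ddx3y were named after their values were seen.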

Additional observations from a re-analysis of the deposited data

How the results depend on the processing

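Calls of Hspb1 and Hspb7 in saline mutants against wild type held under all 15 alternatives. The number of members called there, 3, became 5 without the 3 libraries with Xist and 2 (without Hspa8) under median-of-ratios scaling, all 9 libraries in 1 fit, the replicate block and without saline mutant replicate 2. The number of all genes called, 1051, became 580 without those libraries and 528 to 1037 without 1 library.

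In treated against saline mutants, 4 genes were called. The number became 7 with a pseudocount of 4, 2 with no filter, 10 with median-of-ratios scaling, 32 with limma's trend and no rounding floor, 15 with all 9 libraries in 1 fit, 2 without the libraries with Xist, and 2 to 8 without 1 library. In treated mutants against wild type, 134 became 77 with limma's trend, 251 with all 9 libraries in 1 fit, 9 without the libraries with Xist, and 1 (without wild type replicate 1) to 139 (without treated replicate 3) without 1 library. Members called there, 0, became 1 with all 9 libraries in 1 fit, and 0 to 2 without 1 library. The cause was not tested, except that leaving out libraries leaves fewer samples.

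Under the replicate block the counts were 824, 35 and 35 genes and 2, 0 and 0 members; Hspa8 was lost (limma adjusted p = 0.05003), as were Des (0.0721), Cct8 (0.0535) and Hsph1 (0.0689) in saline mutants and Flnc in treated mutants (0.0518), and the other listed chaperones called in saline mutants went from 10 to 8. Same-numbered libraries did not deviate together in every pair (r of -0.417 to 0.621), so the numbers are not taken as pairing.

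Signs turned only for genes that were not called. In treated against saline mutants, the ranges without 1 library were -0.39 to 0.17 for Hspb1, -0.047 to 0.16 for Hspb2, -0.13 to 0.13 for Hspb6, -0.15 to 0.30 for Cryab, -0.16 to 0.21 for Hspa8 and -0.39 to 0.15 for Hsp90aa1. Without the libraries with Xist, Hspb2, Hspb6, Cryab and Hspa8 were -0.11, -0.26, -0.20 and -0.16. Against wild type, Hspb3 ranged from -0.062 to 0.31 without 1 library, and Unc45b was -0.065 without the libraries with Xist. Of 714 results for single genes under an alternative, 651 kept direction and call, 39 lost a call, 8 gained one and 16 changed sign. Hspb3 had no value with a filter at a mean value of 10. Unknown depth limits what can be said of Hspb2, Hspb3, Hspa1a and Hspa1l, whose values are near the rounding step.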
